A study of Homo sapiens with 6 samples.

Results

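The AP-1 family examined here comprised 10 genes of the deposited human table of 19973 genes, namely FOS, FOSB, FOSL1, FOSL2, JUN, JUNB, JUND, BATF, BATF3 and JDP2, each taken as the gene whose name in the table equals the symbol. The family was chosen by measured values, because the difference of several members between shNUF2 and shNC cells was known beforehand, so the members' differences between the groups are given as a description, with no p-value of their own. RNA-seq was performed on OVCAR3, an established human ovarian cancer cell line, in 6 libraries. Of these, 3 libraries came from cells labelled as wild-type and transfected with shNC, a negative control hairpin, and 3 from cells transfected with shNUF2, a hairpin against the coding sequence of NUF2, a subunit of the kinetochore complex that attaches chromosomes to the mitotic spindle. The NUF2 hairpin was cloned into a plasmid named for a U6 promoter, CMV and puromycin, and NUF2 was targeted by 1 hairpin. The study's methods do not name the plasmid of shNC. The sources used here do not say whether the 3 libraries of a group came from separate cultures or transfections, so the p-values below measure only the spread between these libraries, which may be technical.

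AP-1 is a dimeric transcription factor. FOS proteins cannot pair with each other and bind DNA as partners of a JUN protein, whereas JUN proteins can also pair among themselves, and the leucine zipper of each protein decides its partners. Several of the FOS and JUN genes, FOS, FOSB, JUN and JUNB among them, are known as immediate early genes, induced within minutes of growth factor, stress or cytokine signals through MAP kinases, and in carcinoma cells AP-1 is best known for genes of migration, matrix breakdown and inflammation. BATF, BATF3 and JDP2 share the same kind of zipper and DNA-binding region but lack the activation domains of FOS, and often act as repressors or as partners of other factors.

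The promoters of the members are shown because several of these genes are textbook targets of AP-1 and of the related CREB and ATF factors. RefSeq promoter windows of GRCh38.p14 were found for 8 of the 10 members, FOSL1 and BATF3 being the other two, with 3 start sites for JDP2. The 150 bases upstream of the start site are printed 5′ to 3′ on the gene's strand, for JDP2 those of the start site whose window held a match. BATF, whose window held no match, is not printed. Capitals mark matches to the AP-1 site TGANTCA, the CREB and ATF site TGANNTCA, its core TGACG on either strand, the CArG box and the MEF2 site, and a TGACG can lie inside a longer site.
JUN promoter, chr1:58784048-58784197, minus strand: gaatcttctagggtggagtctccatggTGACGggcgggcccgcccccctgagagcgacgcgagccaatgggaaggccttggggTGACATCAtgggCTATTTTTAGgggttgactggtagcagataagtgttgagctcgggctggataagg
FOSB promoter, chr19:45467846-45467995, plus strand: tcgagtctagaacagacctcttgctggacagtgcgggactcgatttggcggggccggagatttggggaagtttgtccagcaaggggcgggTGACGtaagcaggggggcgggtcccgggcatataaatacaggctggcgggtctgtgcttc
FOS promoter, chr14:75278678-75278827, plus strand: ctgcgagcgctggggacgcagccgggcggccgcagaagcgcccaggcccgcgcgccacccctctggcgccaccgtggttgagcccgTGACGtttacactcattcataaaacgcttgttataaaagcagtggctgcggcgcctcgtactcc
JUNB promoter, chr19:12791336-12791485, plus strand: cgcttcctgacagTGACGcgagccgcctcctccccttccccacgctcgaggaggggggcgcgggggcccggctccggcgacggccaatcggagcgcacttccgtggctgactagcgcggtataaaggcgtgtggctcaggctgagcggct
JUND promoter, chr19:18281623-18281772, minus strand: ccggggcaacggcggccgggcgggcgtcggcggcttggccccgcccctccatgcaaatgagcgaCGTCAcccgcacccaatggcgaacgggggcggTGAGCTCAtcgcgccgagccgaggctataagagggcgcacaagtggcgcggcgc
FOSL2 promoter, chr2:28392708-28392857, plus strand: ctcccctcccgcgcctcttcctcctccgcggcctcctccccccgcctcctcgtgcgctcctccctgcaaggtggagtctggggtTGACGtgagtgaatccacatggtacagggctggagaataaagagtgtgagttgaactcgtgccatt
JDP2 promoter, chr14:75427872-75428021, plus strand: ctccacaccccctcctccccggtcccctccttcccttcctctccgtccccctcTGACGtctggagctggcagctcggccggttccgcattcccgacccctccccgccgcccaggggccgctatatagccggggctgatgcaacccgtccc
Over the whole windows, which reach 250 bases upstream and 50 bases downstream of the start, TGACG was found in 7 of the 10 member windows, 1 of them among the 3 of JDP2, against 24.6% of the 35116 RefSeq promoter windows searched in the same way. Counting the base before the start as −1, its first base lay at −64 in FOS, −60 in FOSB, −66 and −201 in FOSL2, −97 in JDP2, −123 in JUN and −137 in JUNB. JUND held 3 matches, at −86, −197 and −200, the latter pair overlapping on opposite strands, and BATF held none. The site TGANNTCA was found in JUN, as TGACATCA at −67, and in JUND, as TGACGTCA at −200 and TGAGCTCA at −54, against 11.5% of all windows. JUN also held a MEF2 site, CTATTTTTAG, at −55, a motif present in 2.99% of all windows. TGANTCA was found only in FOSL2, as TGACTCA 5 bases downstream of the start, against 7.71% of all windows. A CArG box was found in none of the member windows, against 1.29%. Sequence more than 250 bases upstream was not searched, so a site farther out would be missed. TATAAA stood at −33 in FOS, −31 in JUNB and −30 in FOSB, against 11.5% of all windows. These matches are letters in the reference and are no evidence of binding in these cells. The name given to a motif does not decide which of these related factors can bind it.

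The 6 libraries held 13057534 to 16995452 reads assigned to genes, with 14582 to 14691 genes seen in each shNC library and 15435 to 15536 in each shNUF2 library. NUF2 had 903, 1096 and 1092 reads in shNC and 281, 290 and 384 in shNUF2, and its level fell by 1.51 on the log2 scale (SE 0.08, adjusted p = 2.17e-15, the quasi-likelihood test of edgeR, adjusted by Benjamini-Hochberg over the 12874 genes fitted, as are all adjusted p-values below). Of 8 markers of ovarian carcinoma epithelium, MSLN (153 FPKM in shNC), KRT8 (49.5 FPKM) and KRT18 (35.3 FPKM) were clearly present, EPCAM (1.41 FPKM), PAX8 (1.39 FPKM) and MUC16 (1.12 FPKM) were low, WT1 had at most 7 reads and CDH6 had 0 reads in every library. With several of its usual markers low or missing, the identity of the line rests on the labels and was not tested. FPKM is the read count scaled to gene length and library total, and it is the scale used wherever levels of different genes are compared. The summed level of these markers spanned 237 to 251 FPKM in shNC and 237 to 249 FPKM in shNUF2. The summed level of 9 markers of leukocytes, endothelium and fibroblasts spanned 9.99 to 10.6 FPKM in shNC and 8.82 to 9.96 FPKM in shNUF2, most of it COL1A1, with 3 of the 9 at 10 reads or fewer in every library. Of the 6 ovarian markers fitted, 4 rose and 2 fell at an adjusted p under 0.05. KRT8 rose past the threshold defined below, with a log2 fold change of 1.04, EPCAM, PAX8 and KRT18 rose by 0.69, 0.64 and 0.55 on the log2 scale, and MSLN (153 to 88.9 FPKM) and MUC16 had log2 fold changes of −0.75 each, so the steady sum holds opposite movements. The part of these markers in the results on the family was not tested. As in any bulk measurement, fewer cells of a type and less RNA per cell cannot be told apart.

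In control cells the family was led by JUNB and ended with BATF. Mean levels in shNC were 149 FPKM for JUNB, 56.6 for FOSL2, 51.4 for JUND, 45.6 for JUN and 26.4 for FOSL1, all of which lay above the level of at least 91.9% of the genes in the table. FOS followed at 5.17 FPKM, JDP2 at 4.07, BATF3 at 0.836, FOSB at 0.56 and BATF at 0. Neighbours in this order had separate ranges over the 3 libraries except FOSL2 with JUND and JUND with JUN. In shNUF2 cells the order was JUNB (187 FPKM), JUN (181), FOSL1 (129), FOSL2 (49.9), JUND (32.7), FOS (6.38), FOSB (4.33), BATF3 (1.62), JDP2 (1.58) and BATF (0.0521), and the ranges of JUNB and JUN overlapped, as did those of BATF3 and JDP2.

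**Figure D1:**
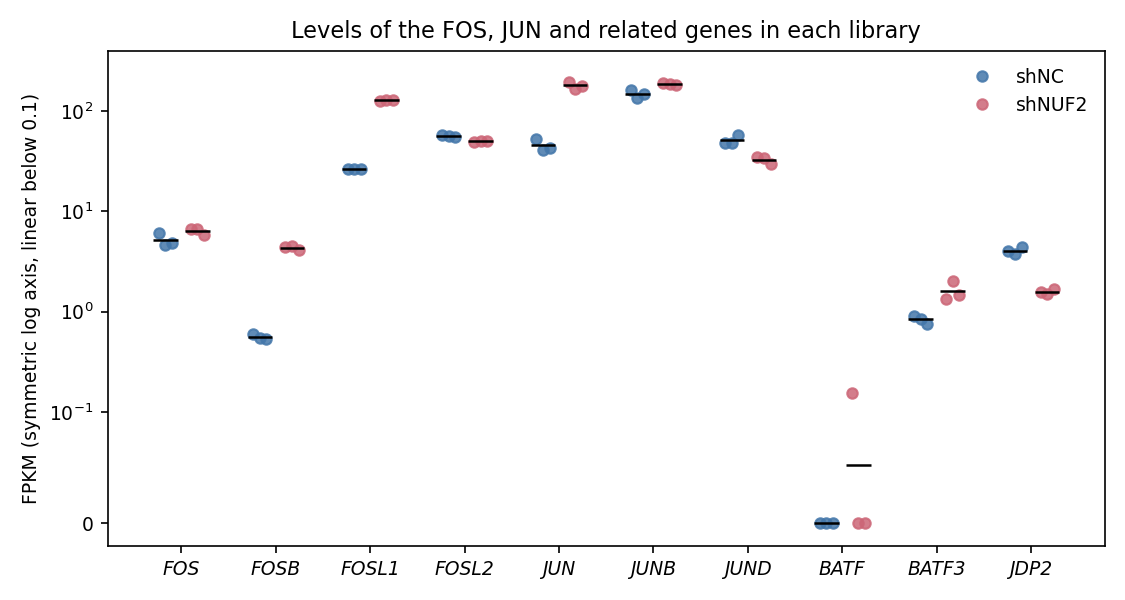
Level of each family gene in each library, as FPKM on a symmetric log axis that is linear below 0.1, with blue points for the 3 shNC libraries, red points for the 3 shNUF2 libraries and black bars for the group means. FOSB, FOSL1 and JUN lie well above the shNC points in shNUF2, JDP2 and JUND lie below, and FOS and FOSL2 differ little.

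Among the FOS genes, FOSL1 and FOSB were far higher in shNUF2 cells, FOSL2 was slightly lower and FOS itself differed little. FOSL1, also called FRA1, is the FOS protein most associated with carcinoma cell invasion, and its gene (ENSG00000175592, chr11:65892049-65900573, minus strand) had 709, 781 and 842 reads in shNC against 3303, 3214 and 3701 in shNUF2. Its mean was 49.2 ± 0.558 CPM (counts scaled to library size with TMM factors) in shNC and 246 ± 1.12 in shNUF2 (SD, n = 3), 5-fold higher, with a log2 fold change of 2.32 (SE 0.05). The shNUF2 libraries all lay above the shNC libraries. FOSB (ENSG00000125740, chr19:45467995-45475179, plus strand), an immediate early gene that also makes a short, stable isoform known from the brain, had 47, 48 and 50 reads in shNC and 335, 328 and 345 in shNUF2. From 3.07 ± 0.208 to 24.3 ± 1.23 CPM it was 7.92-fold higher, a log2 fold change of 2.99 (SE 0.14) and the largest in the family. Its 6 libraries formed separate groups, but even in shNUF2 the gene stood at only 4.33 FPKM.

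FOSL2, also called FRA2, was the most abundant FOS gene of the control cells (ENSG00000075426, chr2:28392448-28417317, plus strand), with 5906, 6284 and 6738 reads in shNC and 4902, 4689 and 5445 in shNUF2. Its mean was 400 ± 13.3 CPM in shNC and 362 ± 1.45 CPM in shNUF2, a log2 fold change of −0.14 (SE 0.04). The shNUF2 libraries all lay below the shNC libraries, by a margin far smaller than that of FOSL1. FOS, the founding member and the classic serum-induced gene (ENSG00000170345, chr14:75278826-75282230, plus strand), had 271, 230 and 265 reads in shNC and 290, 277 and 285 in shNUF2, which is 16.3 ± 2.46 and 20.6 ± 1.43 CPM and a log2 fold change of 0.34 (SE 0.11). The groups overlapped in CPM, since shNC replicate 1 was high.

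Among the JUN genes, JUN was higher in shNUF2 cells, JUNB slightly higher and JUND lower. JUN encodes the strongest activator of the JUN proteins and the main substrate of the JNK kinases (ENSG00000177606, chr1:58776845-58784048, minus strand). It had 2718, 2308 and 2647 reads in shNC and 9819, 7923 and 9883 in shNUF2, or 163 ± 24.7 and 665 ± 59.8 CPM, 4.08-fold higher with a log2 fold change of 2.03 (SE 0.07). The lowest shNUF2 library was still well above the highest shNC library, although JUN varied more between replicates than FOSL1. JUNB, a weaker activator that can restrain JUN (ENSG00000171223, chr19:12791486-12793315, plus strand), had 4216, 3866 and 4640 reads in shNC and 4801, 4494 and 5053 in shNUF2. Its 269 ± 27.3 and 346 ± 10.1 CPM gave a log2 fold change of 0.36 (SE 0.05), with no overlap between the groups. JUND, the JUN gene typically expressed at a steady level in resting cells (ENSG00000130522, chr19:18279694-18281622, minus strand), had 1300, 1470 and 1903 reads in shNC and 919, 851 and 871 in shNUF2. At 98.0 ± 10.9 against 63.9 ± 5.32 CPM, its log2 fold change was −0.62 (SE 0.07), and the 3 shNUF2 libraries were all lower than the 3 shNC libraries.

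Of the 3 related genes, JDP2 was lower and BATF3 higher in shNUF2 cells, and BATF was practically absent. JDP2, a JUN-binding repressor (ENSG00000140044, chr14:75427716-75474111, plus strand), had 357, 368 and 471 reads in shNC and 135, 123 and 160 in shNUF2, which is 25.2 ± 2.18 and 10 ± 0.588 CPM, 0.399 of the control level, with a log2 fold change of −1.32 (SE 0.11). The groups were well apart, and JDP2 went in the opposite direction to JUN, FOSL1 and FOSB. BATF3, best known from dendritic cells and T cells (ENSG00000123685, chr1:212686417-212699840, minus strand), had 33, 34 and 33 reads in shNC and 48, 68 and 58 in shNUF2, or 2.12 ± 0.202 and 4.22 ± 0.892 CPM and a log2 fold change of 0.99 (SE 0.25), with all shNUF2 libraries above the shNC libraries at these low counts. BATF, a lymphocyte factor (ENSG00000156127, chr14:75522455-75546993, plus strand), had 0 reads in 5 libraries and 2 in shNUF2 replicate 1, so no fold change is given. JDP2, BATF and FOS are the 3 genes that the table lists in a span of 268168 bp of chromosome 14, and their differences did not run in 1 direction.

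Of the 10 genes, 9 had enough reads to be fitted. The threshold was a change of more than 1 on the log2 scale, in either direction, together with p under 0.05 before adjustment. This is a reading of the study's criterion, which names neither the log nor an adjustment, and it served only to sort the members. JUN, FOSL1 and FOSB were past it upwards and JDP2 downwards, and 5 were not past it. Over all 12874 genes fitted, 9.41% were past it upwards and 4.16% downwards. The median log2 fold change was 0.36 over the 9 genes and −0.01 over all genes fitted. JDP2 with −1.32 was the member nearest the threshold among those past it and BATF3 with 0.99 the nearest among the others. BATF3 reached 1.05 without shNC replicate 1, 1.09 without shNUF2 replicate 1 and 1.05 without shNUF2 replicate 3, which put it past the threshold. The shNUF2 libraries did not overlap with the shNC libraries in 8 of the 9, with 5 above and 3 below, against 70.6% of all genes fitted in either direction. Since the family was picked with this contrast known, nothing is read from these counts.

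**Figure D2:**
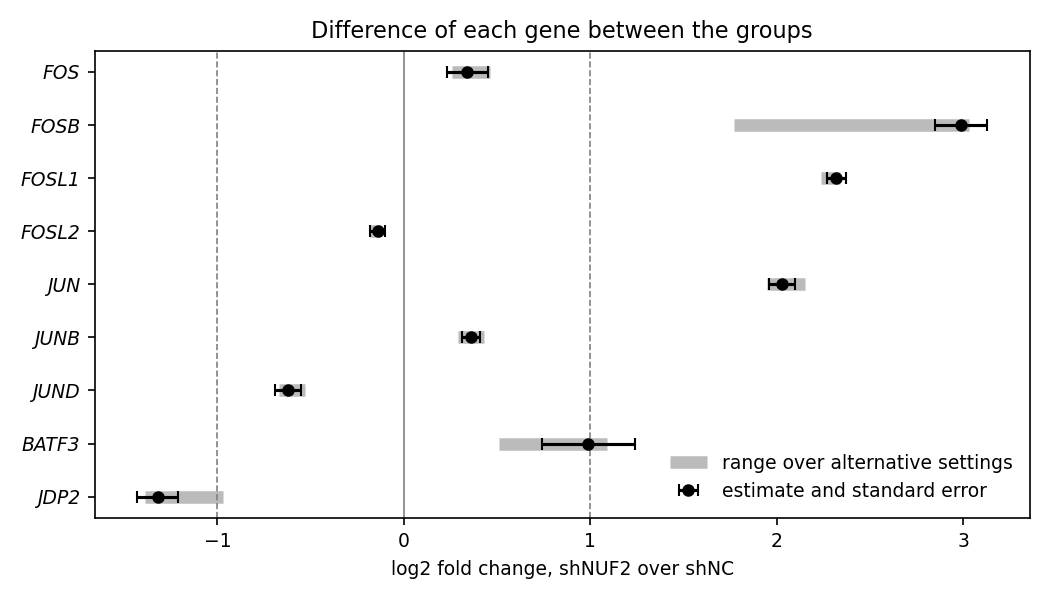
Log2 fold change of shNUF2 over shNC for the 9 fitted genes, with points and whiskers for the estimate and its standard error and grey bars for the range over the alternative settings; dashed lines mark a log2 fold change of 1 in each direction. FOSB, FOSL1 and JUN stand to the right of the upper line, BATF3 on it, and JDP2 to the left of the lower line with a grey bar that crosses it.

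FOSL1 and JUN made up more of the family's level in shNUF2 cells, and FOSL2, JUNB and JUND less, although the level of JUNB itself was higher and that of FOSL2 only slightly lower. The summed level of the 10 genes was 361, 316 and 342 FPKM in shNC and 612, 585 and 582 FPKM in shNUF2, 1.75 times as high on average. The FOS genes summed to 88.7 ± 2.58 and 189 ± 2.22 FPKM, the JUN genes to 246 ± 20.6 and 400 ± 18.1 FPKM, and BATF, BATF3 and JDP2 together to 4.91 ± 0.301 and 3.26 ± 0.243 FPKM. In both groups the JUN genes held most of the family's level, 72.4 ± 1.32% in shNC and 67.5 ± 1.2% in shNUF2.

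Within the FOS genes, FOSL2 held 63.8 ± 0.173% of the level in shNC and 26.4 ± 0.183% in shNUF2, while FOSL1 held 29.8 ± 0.65% and 68.0 ± 0.292%. FOSL1 and FOSL2 thus exchanged places, the ratio of their FPKM values being 0.456, 0.472 and 0.474 in shNC and 2.56, 2.6 and 2.58 in shNUF2. FOS held 5.82 ± 0.678% in shNC and 3.37 ± 0.222% in shNUF2, and FOSB held 2.28 ± 0.107% in shNUF2. Within the JUN genes, JUN held 18.5 ± 1.5% in shNC and 45.2 ± 1.92% in shNUF2, JUNB 60.5 ± 1.13% and 46.7 ± 1.58%, and JUND 21.0 ± 2.63% and 8.16 ± 0.54%. The ratio of JUN to JUNB was 0.326, 0.301 and 0.288 in shNC and 1.03, 0.89 and 0.988 in shNUF2, close to equal levels. The ratio of JUN to JUND was 0.896 ± 0.194 in shNC and 5.56 ± 0.553 in shNUF2. These shares describe mRNA, not protein or dimers, and rest on the same contrast as the choice of the family.

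**Figure D3:**
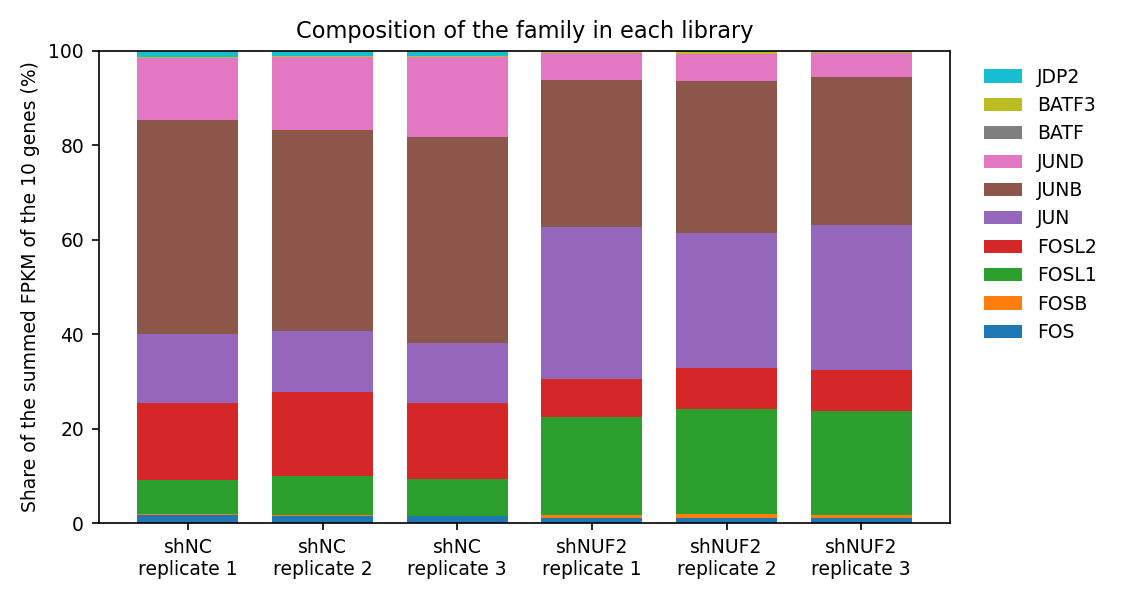
Share of each family gene in the summed FPKM of the 10 genes, as stacked bars in percent for each of the 6 libraries. FOSL1 (7.80% on average in shNC, 21.7% in shNUF2) and JUN (13.4% and 30.5%) take up more of the bar in every shNUF2 library, and JUNB (43.8% and 31.5%), FOSL2 (16.7% and 8.42%) and JUND (15.2% and 5.51%) less.

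The members differed in how much they varied between replicates. The coefficient of variation of CPM in shNC was 15.2% for JUN, 15.1% for FOS, 11.1% for JUND and 10.1% for JUNB, whereas counting error alone would give 1.98%, 6.26%, 2.53% and 1.54%. FOSL1 varied by 1.13%, less than the 3.59% of counting error, so its replicates cannot be told from counting noise, and FOSL2 varied by 3.32% against 1.26%. In shNC, FOS, JUN and JUNB were each highest in replicate 1 and lowest in replicate 2, and JUND was lowest in replicate 1. In shNUF2, JUN varied by 9% against a counting error of 1.04%, and FOSL1 by 0.456% against 1.71%.

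The genes whose profile over the 6 libraries was nearest to that of JUN, among 11775 genes with sufficient reads, were LAMB3, a laminin chain of the epithelial basement membrane (distance 0.089), AKAP12, a kinase-anchoring protein (0.109), ATF3, a stress-induced bZIP factor (0.147), RIPK4, a keratinocyte kinase (0.149), and CLEC2B, a C-type lectin (0.164). The distance is Euclidean, over log2 CPM centred per gene. LAMB3 had 11550, 10079 and 11538 reads in shNC and 41006, 35876 and 42677 in shNUF2, and so shared with JUN both the size of the difference and the dip in replicate 2 of each group. Of the family, FOSL1 was the nearest to JUN at place 89 (0.486), FOSB followed at place 512 (1.139) and JDP2 was the farthest at place 11572 (4.113).

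Other bZIP proteins pair with FOS and JUN, and of 18 such genes 16 were fitted. With shNUF2, 4 rose past the threshold, 0 fell past it and 12 were not past it, with a median log2 fold change of 0.21, and the 4 are 25% of those fitted beside 9.41% of all genes fitted. Without the demand on the fold, 7 rose and 6 fell at an adjusted p under 0.05 in edgeR, where 33.9% of all genes fitted rose and 33.8% fell. ATF3, which forms dimers with JUN, had 254, 235 and 247 reads in shNC and 950, 825 and 937 in shNUF2, with a log2 fold change of 2.07 (SE 0.09, adjusted p = 2.26e-17). All 3 shNUF2 libraries of ATF3 lay far above the shNC libraries. MAFF, a small MAF protein without an activation domain, rose with a log2 fold change of 1.15 (SE 0.08, adjusted p = 9.83e-13), and MAFA, a factor of pancreatic beta cells seen here with at most 51 reads, with 1.01 (SE 0.29, adjusted p = 0.00368). With shNC replicate 1, shNC replicate 2, shNUF2 replicate 1 or shNUF2 replicate 2 left out, with scaling by library totals and with limma on log2(FPKM + 0.1), 3 rose past the threshold. Without shNC replicate 1 or shNUF2 replicate 1, 1 also fell past it, NRL, a retinal factor with at most 14 reads that was too low to be fitted with all 6 libraries. MAFK, the small MAF with the highest level of the list, went from 191 to 113 FPKM with a log2 fold change of −0.72 (SE 0.04, adjusted p = 1.82e-14), short of the threshold.

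The enzymes that phosphorylate FOS and JUN were represented by 18 genes of the JNK, ERK and ERK5 cascades and the RSK and MSK kinases. Of these, 16 were fitted and 1 rose past the threshold, 6.25% beside 9.41% of all genes fitted, with a median log2 fold change of 0.34, and 11 rose and 3 fell at an adjusted p under 0.05 regardless of size, beside 33.9% and 33.8% of all genes. The gene past the threshold was MAPK7, which encodes ERK5, with 304, 310 and 335 reads in shNC and 618, 532 and 715 in shNUF2 and a log2 fold change of 1.16 (SE 0.08, adjusted p = 3.31e-12). Its groups did not overlap, but it was not past the threshold with limma on log2(FPKM + 1). Kinase activity is not measured by RNA-seq.

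Of 12 genes for factors known to act on the FOS and JUN promoters, such as SRF, the ELK, MRTF and MEF2 factors, STAT3 and SP1, all were fitted and 1 rose past the threshold, 8.33% beside 9.41% of all genes fitted, with a median log2 fold change of 0.33. At an adjusted p under 0.05, 7 rose and 3 fell, beside the 33.9% and 33.8% of all genes. The gene past the threshold was MEF2C, with 5, 1 and 4 reads in shNC and 16, 29 and 14 in shNUF2. Its log2 fold change was 2.71 (SE 0.56, adjusted p = 1.18e-04) on very few reads. At 0.216 CPM in shNC and 1.45 in shNUF2, it had enough reads to be fitted only through the shNUF2 libraries. Nothing is therefore read from its p-value or from this call, which was lost with limma on log2(FPKM + 1) and on log2(FPKM + 0.1). The groups did not overlap, but at 0.122 FPKM in shNUF2 the gene stood far below SP1, the most abundant of the list, with 44.2 FPKM in shNC and 31.2 in shNUF2 and a log2 fold change of −0.46 (SE 0.04, adjusted p = 3.28e-10).

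Of 12 genes of mRNA and protein turnover, including the decay factors ZFP36, ZFP36L1 and ZFP36L2 and the ubiquitin ligase components FBXW7, COP1 and ITCH, 0 passed the threshold, while edgeR gave 8 higher and 2 lower at an adjusted p under 0.05, with a median log2 fold change of 0.26. The shares over all genes fitted were 9.41% upwards and 4.16% downwards for the threshold, and 33.9% and 33.8% for the adjusted p alone. ZFP36, which destabilises mRNAs with AU-rich elements, had the highest level at 49.7 FPKM in shNC and 79.9 in shNUF2, with a log2 fold change of 0.73 (SE 0.06, adjusted p = 6.99e-11). The element's pentamer ATTTA was counted in the longest annotated 3′ UTR of each family gene (GENCODE 29). FOS had 5 in 806 bases, 6.20 per kilobase and more than in 95% of 18732 genes. Per kilobase, JUNB had 4, BATF3 2.68, JUN 2.33 and FOSL2 1.85, against a median of 1.53 over all genes. JUND had 1.47, FOSB 1.38, FOSL1 1.19, JDP2 0.65 and BATF 0.

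**Figure D4:**
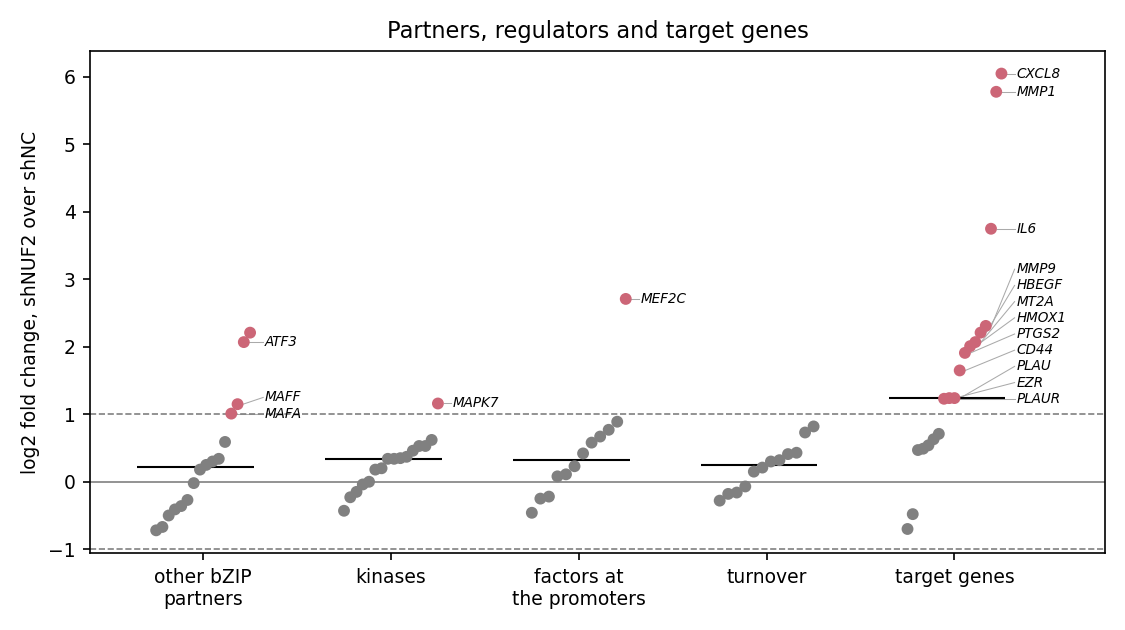
Log2 fold change of shNUF2 over shNC for the fitted genes of 5 lists around the family, 1 point per gene, red where past the threshold upwards and grey where not past it, with black bars for the list medians and dashed lines at a log2 fold change of 1 in each direction. The target genes reach 6.05 (CXCL8) with a median of 1.24, while the medians of the other 4 lists lie between 0.21 and 0.34.

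Genes widely described as AP-1 targets were mostly higher in shNUF2 cells. Of 25 such genes 19 were fitted, 12 rose past the threshold, 0 fell past it and 7 were not past it, and the median log2 fold change was 1.24. At an adjusted p under 0.05, 16 rose and 2 fell, beside 33.9% and 33.8% of all genes. This list was drawn up with results of these libraries known, so its count is no independent evidence, and the background is the 9.41% given above. CXCL8, the neutrophil chemokine interleukin-8, had 96, 98 and 91 reads in shNC and 5939, 5224 and 5380 in shNUF2, 66-fold higher in CPM, with a log2 fold change of 6.05 (SE 0.09, adjusted p = 7.87e-27). MMP1, interstitial collagenase and a classic gene of AP-1 studies, had 11, 13 and 8 reads in shNC and 560, 439 and 562 in shNUF2, with a log2 fold change of 5.78 (SE 0.17, adjusted p = 2.98e-20). IL6 had 57, 70 and 58 reads in shNC and 704, 749 and 724 in shNUF2, with a log2 fold change of 3.75 (SE 0.12, adjusted p = 4.29e-20). In all 3 genes the groups were separated by more than the whole spread within either.

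The least of the 12 that rose were PLAUR and PLAU, the urokinase receptor and urokinase, with log2 fold changes of 1.23 (SE 0.06, adjusted p = 2.89e-16) and 1.24 (SE 0.13, adjusted p = 3.9e-09), and EZR, the membrane linker ezrin, with 1.24 (SE 0.05, adjusted p = 1.89e-18). The other 6 were MMP9, HBEGF, MT2A, HMOX1, PTGS2 and CD44, with log2 fold changes from 1.65 to 2.31. The 2 that fell without passing it were CCND1, encoding cyclin D1 (−0.70, SE 0.04, adjusted p = 1.13e-13), and AXL, a receptor tyrosine kinase (−0.48, SE 0.04, adjusted p = 2.31e-10). Of the 6 targets that were not fitted, MMP10 had 0 reads in shNC and 15, 7 and 9 in shNUF2, at least 3.9-fold higher, and MMP13 had 0 and 11, 8 and 10, at least 3.64-fold higher, both against a floor of 3 reads per library. CCL2, IVL, MMP3 and SPRR1B had at most 8 reads in any library.

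Reads of overlapping genes can be confused where strand is ignored. The libraries were made with a strand-specific kit, and the strand setting used for counting is not given in the sources used here. FOSB lies opposite ERCC1 and JUNB opposite HOOK2, and JUNB shared 259 bases, 14.2% of its transcript, with HOOK2 transcripts. ERCC1 (log2 fold change −0.37, SE 0.07, adjusted p = 1.74e-05) and HOOK2 (−0.56, SE 0.08, adjusted p = 4.76e-07) fell, and the part of shared reads in the values of FOSB and JUNB was not tested. FOSL2 and JDP2 lie over non-coding genes of the opposite strand, FOSL2 also over a non-coding gene of its own strand, from which strand cannot separate it, and apart from JUNB no family gene shared a stretch of at least 75 bases at 95% identity with a transcript of another gene. The 7-base site complementary to the seed of the shNUF2 guide, AGCAATT, stood once in the 3′ UTR of JDP2 and in no other family gene. Of all genes, 13% held 1 or more, a share not matched for length. The 3′ UTR of JDP2 has 4636 bases against a median of 1137, and longer ones hold more matches by chance. The part of this site in the lower level of JDP2 was not tested.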

How the data were processed

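Strand-specific mRNA libraries of OVCAR3 cells were sequenced, 3 per group, and groups were taken from the labels. Per the labels' processing notes, cutadapt, HISAT and HTSeq were used with GRCh38.p13; versions and counting settings are not given in the sources used here. The deposited read counts per gene are whole numbers, and the deposited FPKM values equal count per gene length and library total to within 2.71e-07. The table held 0 other columns of per-sample values. The 6 libraries held 13057534 to 16995452 counts, and no pair was identical.

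Counts were filtered with filterByExpr, scaled by TMM and fitted across 12874 genes with edgeR 4.0.16 (R 4.3.3) by the quasi-likelihood method, with Benjamini-Hochberg adjustment and no covariates. A gene was called past a log2 fold change of 1 in either direction with an unadjusted p under 0.05, a reading of the study's criterion. On simulated data with 200 genes changed by 1.5 on the log2 scale among 12874, edgeR called 195 of them and 1 unchanged gene. The simulated spread between replicates was the same for every gene and smaller than that of JUN here. Far fewer genes were changed than differed in these libraries, so the counts do not carry over to them. DESeq2 1.42.0, limma 3.58.1 on log2(FPKM + pseudocount 1 or 0.1), other scalings and filters, the replicate block and leaving out each library were alternatives. BLASTN 2.17.0 was used to look for shared transcript sequence, with GENCODE 29 transcripts.

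The members and all gene lists were chosen with earlier results of these data known. All 10 members were named; from each list, up to 3 called genes with the highest and 3 with the lowest log2 fold change and the gene with the highest shNC FPKM, and the 5 genes nearest to JUN. A few genes that this rule names are not reported here. Other list genes that are mentioned complete a count of 6 or fewer and were chosen after their values were seen.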

Additional observations from a re-analysis of the deposited data

How the results depend on the processing

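No fitted family gene changed direction under any of the 16 alternatives. The replicate numbers did not pair the libraries (correlations of deviations 0.02, 0.00 and -0.03), and with the replicate block 4 family genes were past the threshold with a median log2 fold change of 0.36, as without it, and 1207 genes were higher and 536 lower over the table. Against 4 family genes past the threshold, limma on log2(FPKM + 1) gave 3, where JDP2 was at -0.97, and FOSB was at 1.77. BATF3 ranged from 0.51 to 1.09 and crossed the threshold, making 5 family genes past it, when each library had to reach 1 CPM and without shNC replicate 1, shNUF2 replicate 1 or shNUF2 replicate 3. The family's median was 0.65 with no filter, because BATF then entered as the 10th gene. The limma fit on log2(FPKM + 1) called 2 other bZIP partners, 0 kinases and 0 promoter factors, a pseudocount of 0.1 and the filter of 1 CPM likewise called 0 promoter factors, the filter because it removes MEF2C, and no filter called 2 kinases; otherwise the cause was not tested. Target genes past the threshold numbered 10 to 15. Over the table, the calls were 430 higher and 206 lower with limma on log2(FPKM + 1), 756 and 397 with the filter of 1 CPM, and 1770 and 634 with no filter, against 1212 and 536. Scaling by library totals alone gave 1136 and 592. The depth limits BATF, BATF3, MAFA and MEF2C, whose values rest on few reads.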
